A study of Mus musculus with 18 samples.

Results

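Troponins, tropomyosins, cardiac myosin binding protein C, leiomodin 2 and the troponin I-interacting kinase were followed as 10 genes in the left ventricle of the mouse heart. They were chosen by name: Tnnt2, Tnni3, Tnnc1, Tnni1, Tnnt1, Tpm1, Tpm2, Mybpc3, Lmod2 and Tnni3k were looked up in the name column of the deposited count table, which lists 48709 genes. All 10 were found, each under 1 identifier, and all 10 passed the filter on low counts that left 13281 genes for testing. The hearts came from male wild-type C57BL/6J mice of 12 weeks. One group of 6 libraries came from mice given both drugs for 21 days, isoproterenol at 30 mg/kg/day from an osmotic pump and minocycline at 50 mg/kg by daily intraperitoneal injection. A second group of 6 received the same isoproterenol with saline injections, and the control group of 6 received saline. Minocycline without isoproterenol is not among the samples used here. Isoproterenol is an agonist of the beta-adrenergic receptors through which catecholamines drive the heart, and minocycline is a tetracycline antibiotic.

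In a cardiac sarcomere the troponin complex sits on tropomyosin along the actin filament. Troponin C binds calcium, troponin I holds the filament switched off when calcium is low, and troponin T anchors the complex to tropomyosin, so that calcium lets tropomyosin move aside and myosin heads attach. Myosin binding protein C works from the thick filament side, where it restrains myosin heads until beta-adrenergic signalling phosphorylates it. Troponin I is another phosphorylation target of that pathway.

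The libraries held 14203041 to 22688664 counts each, and genes of the mitochondrial genome took 40.1 to 47.7% of them. Levels between libraries are given as CPM, counts scaled by library size with TMM factors. Levels between genes are given as the authors' TPM, which also take gene length into account. The tissue label was checked against marker genes: 11 cardiomyocyte markers summed to 33995 to 41723 TPM with both drugs, 35175 to 41680 TPM with isoproterenol and 37857 to 44251 TPM in control libraries, and none of the 11 was at 0. In 4 libraries Myl7, the atrial regulatory light chain, exceeded 80 CPM. These were library 2 of the group given both drugs, library 5 of the isoproterenol group and control libraries 5 and 6. Over all 18 libraries Myl7 lay between 8.44 and 206 CPM, and the tests below were repeated without those 4.

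The scale matters for every direction given here. With TMM scaling the median tested gene had a log2 fold change of about 0 in each comparison. On the authors' TPM the median log2 difference over 10873 genes of at least 1 TPM on average was 0.18 for isoproterenol versus control, 0.11 for both drugs versus control and -0.070 for both drugs versus isoproterenol. Changes are therefore given relative to the median gene, ratios between genes of one library, which do not depend on the scale, are added below, and the TPM result stands beside the calls.

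The 5 promoters below belong to the 3 genes whose counts were lower with isoproterenol and to the cardiac troponin I and T genes, which edgeR did not call. Each line gives the 250 bases before the start of transcription that RefSeq records on GRCm38.p6, read 5′ to 3′ on the strand of the gene. Capitals mark exact matches, on either strand, to an M-CAT element (CATTCC, the site of TEAD factors), a GATA site (AGATAA) or an MEF2 site. The same windows were searched for TATAAA on the gene's strand and for a CArG box on either strand.
Mybpc3, chr2:91117894-91118143, plus strand: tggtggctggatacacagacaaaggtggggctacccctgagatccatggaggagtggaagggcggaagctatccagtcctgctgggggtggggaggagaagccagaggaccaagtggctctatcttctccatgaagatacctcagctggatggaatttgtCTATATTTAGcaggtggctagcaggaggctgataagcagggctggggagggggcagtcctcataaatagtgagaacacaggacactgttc
Tpm1, chr9:67049214-67049463, minus strand: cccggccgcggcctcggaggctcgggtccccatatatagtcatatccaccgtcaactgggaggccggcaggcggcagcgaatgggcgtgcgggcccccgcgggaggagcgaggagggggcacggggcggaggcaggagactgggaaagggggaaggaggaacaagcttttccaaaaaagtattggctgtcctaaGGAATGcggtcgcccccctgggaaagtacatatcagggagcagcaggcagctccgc
Tnnc1, chr14:31208062-31208311, plus strand: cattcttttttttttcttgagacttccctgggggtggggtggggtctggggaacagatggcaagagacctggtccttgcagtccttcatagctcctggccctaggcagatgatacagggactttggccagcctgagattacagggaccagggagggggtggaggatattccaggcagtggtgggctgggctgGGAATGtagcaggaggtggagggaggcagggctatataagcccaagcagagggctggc
Tnni3, chr7:4522529-4522778, minus strand: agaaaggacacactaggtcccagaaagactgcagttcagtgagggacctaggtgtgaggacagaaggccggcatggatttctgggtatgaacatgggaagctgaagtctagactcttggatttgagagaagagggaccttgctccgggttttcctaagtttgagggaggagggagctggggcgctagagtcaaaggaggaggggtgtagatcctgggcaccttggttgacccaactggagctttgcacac
Tnnt2, chr1:135836084-135836333, plus strand: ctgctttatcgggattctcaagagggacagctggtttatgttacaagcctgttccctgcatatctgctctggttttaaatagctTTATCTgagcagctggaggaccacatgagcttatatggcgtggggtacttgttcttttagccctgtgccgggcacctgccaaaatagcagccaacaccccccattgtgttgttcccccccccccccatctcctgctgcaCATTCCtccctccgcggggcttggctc

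RefSeq gave 12 promoter windows for the 10 genes, with a second start each for Tnnt2 and Tnni1. M-CAT was found in 4 of the 12, those of Tnnt2, Tnni3k, Tpm1 and Tnnc1, against 12.6% of 32851 mouse promoter windows of the same length. MEF2 was found in 1, that of Mybpc3 at 90 bases before the start, against 2.92% of all windows. AGATAA was found in 1 (Tnnt2) against 9.99%, TATAAA in 1 (Tnnt1) against 7.59%, and a CArG box in 0 against 1.47%. The E-box CANNTG, which the capitals do not mark, was in all 12 and in 66.2% of all windows. These are matches of letters only. Tpm1 and Tnnc1, which were lower with isoproterenol, shared the M-CAT letters with Tnnt2, which edgeR did not call.

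Per length, the cardiac troponin genes stood among the most abundant transcripts of the ventricle. In the control mean Tnnc1 was 18th, Tnni3 19th and Tnnt2 21st of all listed genes, Tpm1 was 27th and Mybpc3 41st. Tnni3 averaged 3142 TPM with both drugs, 3043 TPM with isoproterenol and 2910 TPM in controls. Tnnc1 averaged 2969, 2888 and 3115 TPM and Tnnt2 2755, 2702 and 2643 TPM in the same order of groups. Tpm1 followed at 1460, 1504 and 1589 TPM, then Mybpc3 at 761, 827 and 935 TPM and Lmod2 at 332, 387 and 440 TPM. Tnni3k stood far lower at 39.9, 43.9 and 40.6 TPM, and Tpm2 at 15.3, 12.6 and 11.4 TPM. The slow skeletal subunits closed the order, Tnnt1 at 5.01, 4.87 and 5.38 TPM and Tnni1 at 0.199, 0.145 and 0.169 TPM.

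The ranges of Tnni3 and Tnnc1 overlapped in each group, and those of Tnnc1 and Tnnt2 overlapped in both treated groups but not in controls. Every lower neighbour in the order was separate, with the first gene above the next in all 6 libraries of each group. The top of the order was not the same in each group: Tnni3 stood above Tnnc1 in 4 of 6 libraries with both drugs, in 6 of 6 with isoproterenol and in 1 of 6 controls.

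**Figure D1:**
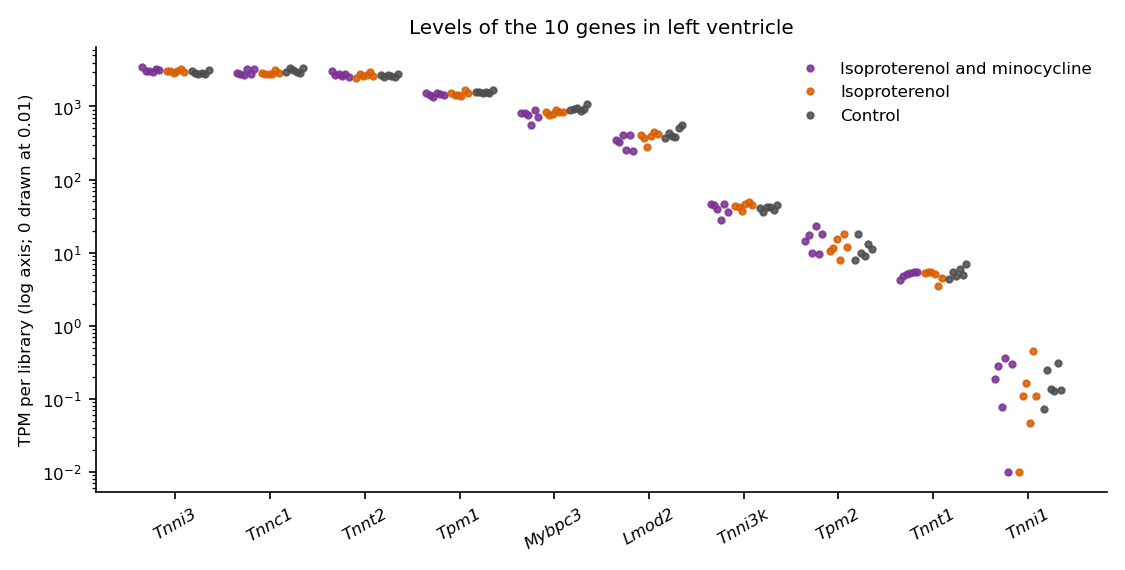
Level of each gene in TPM (log axis) in the 6 libraries of each group, 1 point per library, genes ordered by level. Tnni3, Tnnc1 and Tnnt2 lie together at the top, while Tnnt1 averages 5.01, 4.87 and 5.38 TPM and Tnni1 lies below 1 TPM with 0 counts in 2 libraries.

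With isoproterenol, 3 of the 10 genes fell relative to control and 0 rose: the tropomyosin gene Tpm1, the troponin C gene Tnnc1 and the myosin binding protein gene Mybpc3. Over all genes tested, 12.6% were called in either direction at a Benjamini-Hochberg adjusted p under 0.05 from edgeR's quasi-likelihood test, 6.94% higher and 5.62% lower. The CPM of these same 3 genes did not overlap between the groups, with all 6 isoproterenol libraries below all 6 controls, as in 3.25% of tested genes. With both drugs versus control 4 of the 10 fell and 0 rose, namely Mybpc3, Tpm1, Lmod2 and Tnnc1, where 19.3% of genes were called in either direction, 10.2% higher and 9.05% lower. All 6 libraries with both drugs were below all 6 controls in Tpm1 and Mybpc3, as in 3.59% of tested genes. With both drugs versus isoproterenol alone 0 of the 10 were called, where 0.0527% of genes were, 7 genes in all. DESeq2 called 5 of the 10 for isoproterenol versus control, 4 for both drugs versus control and 0 for both drugs versus isoproterenol, where it called 15.6%, 22.4% and 0.279% of genes. Limma on log2(TPM + 1) called 0, 2 and 0 of the 10, against 24.7%, 17.9% and 0.0828% of genes, and limma-voom called 4, 4 and 0 of the 10, against 16.5%, 18.2% and 0.0602% of genes. The 2 comparisons with control share the control libraries. In ventricular tissue, fewer cardiomyocytes and less RNA per cardiomyocyte cannot be told apart.

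**Figure D2:**
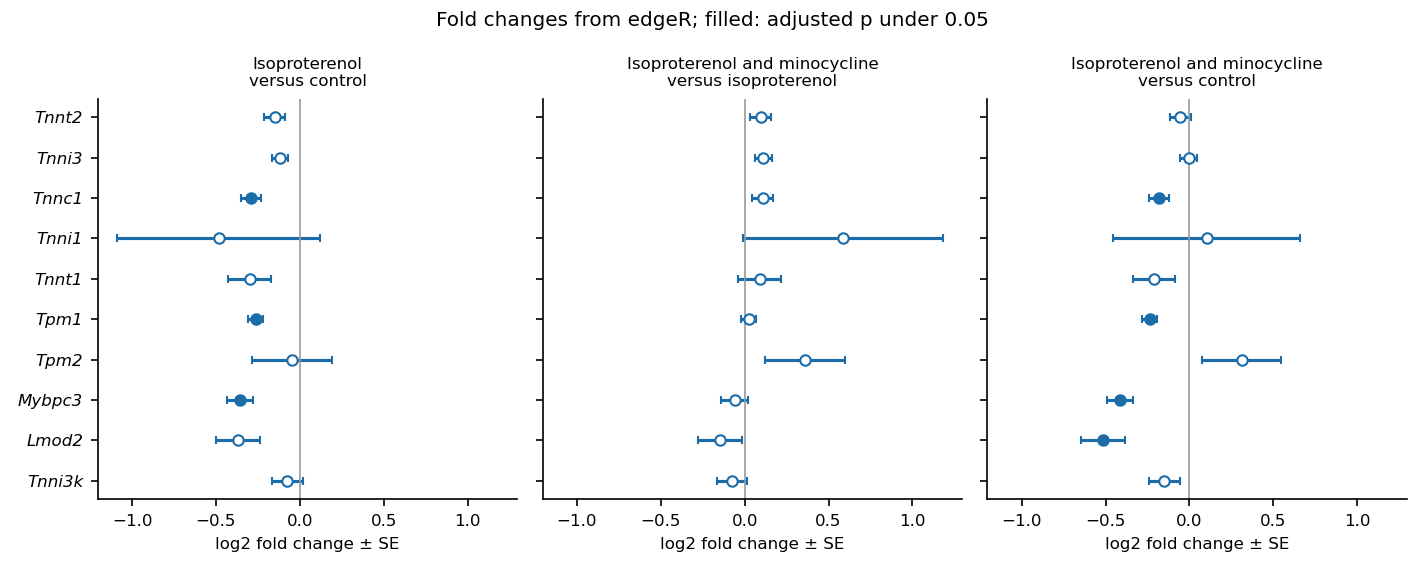
Log2 fold change of each gene with its standard error from edgeR, for isoproterenol versus control, both drugs versus isoproterenol and both drugs versus control, with filled points at an adjusted p under 0.05. Tnnc1, Tpm1 and Mybpc3 are filled left of 0 in both comparisons with control and Lmod2 in the one with both drugs. On the TPM scale the isoproterenol-versus-control values of Tnnt2, Tnni3, Tpm2 and Tnni3k lie right of 0, those of Tnnt2 and Tnni3 do so for both drugs versus control, and that of Tpm1 lies left of 0 for both drugs versus isoproterenol.

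Among the troponin genes, edgeR called the calcium-binding subunit and neither the inhibitory nor the tropomyosin-binding subunit, while DESeq2 also called the inhibitory one, Tnni3, for isoproterenol versus control. Tnnc1 (ENSMUSG00000091898, chromosome 14, 31208312 to 31211729, plus strand) encodes the troponin C of cardiac and slow muscle. It had 1783, 1932 and 2305 CPM as lowest, median and highest with both drugs, 1763, 1829 and 1985 CPM with isoproterenol, and 2100, 2242 and 2390 CPM in controls. Every isoproterenol library was below every control, and 4 of the 6 libraries with both drugs were below the lowest control. Tnnc1 fell by 0.29 on the log2 scale with isoproterenol versus control (SE 0.061, edgeR adjusted p = 0.00318), 1.22-fold. With both drugs versus control it fell by 0.18 (SE 0.061, edgeR adjusted p = 0.0388). The TPM scale gave -0.11 (limma adjusted p = 0.177) and -0.071 (limma adjusted p = 0.418), so that both calls were lost there. Over all 23 alternatives the adjusted p lay between 7.68e-05 and 0.177 for isoproterenol versus control and between 0.00593 and 0.418 for both drugs versus control. That second call was lost without library 1, 2 or 5 of the group given both drugs, or without control 2, 3, 4 or 6, at edgeR adjusted p = 0.0613 to 0.126. Nisch, on the opposite strand, overlaps Tnnc1 and held 8.13% as many counts. Whether the counting used strand is not given in the sources used here.

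Tnni3 (ENSMUSG00000035458, chromosome 7, 4518305 to 4524229, minus strand) encodes cardiac troponin I, whose amino-terminal extension is phosphorylated after beta-adrenergic stimulation. Its lowest, median and highest values were 3788, 4128 and 4442 CPM with both drugs, 3645, 3861 and 4034 CPM with isoproterenol, and 3948, 4161 and 4490 CPM in controls. Of the 6 isoproterenol libraries, 4 were below the lowest control, and 5 of the 6 libraries with both drugs were above the highest isoproterenol library. The log2 fold change of Tnni3 was -0.12 for isoproterenol versus control (SE 0.049, edgeR adjusted p = 0.124), and 0.065 on the TPM scale. DESeq2 gave -0.12 and called it (adjusted p = 0.0455, with 0.0455 to 0.331 over the 23 alternatives). It was 0.11 for both drugs versus isoproterenol (SE 0.049, edgeR adjusted p = 0.607), the only one of the 10 genes at an unadjusted p under 0.05 (0.0344) in that comparison, and -0.0056 for both drugs versus control (SE 0.049, adjusted p = 0.953), which was 0.11 on the TPM scale.

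Tnnt2 (ENSMUSG00000026414, chromosome 1, 135836354 to 135852260, plus strand) encodes cardiac troponin T. It had 6702, 7446 and 8477 CPM with both drugs, 6058, 7154 and 7532 CPM with isoproterenol, and 7292, 7800 and 8140 CPM in controls, so that the 3 ranges overlapped. The log2 fold change was -0.15 for isoproterenol versus control (SE 0.061, edgeR adjusted p = 0.113) and -0.055 for both drugs versus control (SE 0.061, edgeR adjusted p = 0.566), against 0.030 and 0.058 on the TPM scale. For both drugs versus isoproterenol it was 0.095 (SE 0.061, edgeR adjusted p = 0.745). The annotation lists 15 transcripts of Tnnt2 and 21 of Tpm1, and counts per gene do not separate their splice forms.

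The slow skeletal isoforms were scarce in all 3 groups. Tnni1 (ENSMUSG00000026418, chromosome 1, 135779434 to 135810989, plus strand) encodes the slow skeletal troponin I that the fetal heart uses before cardiac troponin I replaces it. It collected 139 counts in the 18 libraries together, with a median of 11 counts with both drugs, 4.5 with isoproterenol and 7 in controls. It had 0 counts in library 5 of the group given both drugs and in isoproterenol library 1, and no edgeR call was made (adjusted p = 0.648 for isoproterenol versus control, 0.828 for both drugs versus isoproterenol and 0.918 for both drugs versus control). Tnnt1 (ENSMUSG00000064179, chromosome 7, 4504570 to 4516382, minus strand), the slow skeletal troponin T gene, had 5.76, 7.38 and 7.87 CPM with both drugs, 4.26, 6.97 and 7.96 CPM with isoproterenol, and 6.83, 7.78 and 10.05 CPM in controls. Its ranges overlapped, with a log2 fold change of -0.30 for isoproterenol versus control (SE 0.13, edgeR adjusted p = 0.1303). Each slow skeletal gene lies near the cardiac gene of the other subunit. Tnni1 and Tnnt2 are 25364 bases apart on the plus strand of chromosome 1, with 1 listed gene between them. Tnnt1 and Tnni3 are 1922 bases apart on the minus strand of chromosome 7, with no listed gene between them. At this distance the control means of Tnni3 and Tnnt1 were 2910 and 5.38 TPM.

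The share of the slow or beta isoform in each pair of isoforms was compared over libraries. Tnni1 made up 0.0112 ± 0.00806% of the troponin I counts with both drugs, 0.00813 ± 0.00836% with isoproterenol and 0.0103 ± 0.00552% in controls (SD, n = 6 each). Tnnt1 made up 0.0952 ± 0.0128%, 0.0947 ± 0.0179% and 0.106 ± 0.0169% of the troponin T counts in the same order of groups. Tpm2 made up 0.466 ± 0.147% of the Tpm1 and Tpm2 counts with both drugs, 0.370 ± 0.0880% with isoproterenol and 0.322 ± 0.102% in controls. None of the 9 differences passed a 2-sided exact permutation test after Benjamini-Hochberg adjustment (adjusted p = 0.701 to 0.948). The smallest p, for Tpm2 with both drugs versus control, was 0.0801 before adjustment, at a difference of 0.145 percentage points.

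Of the tropomyosins, the cardiac form fell and the beta form was not called. Tpm1 (ENSMUSG00000032366, chromosome 9, 67022590 to 67049406, minus strand) encodes the alpha-tropomyosin that makes up most tropomyosin of the mouse ventricle. It had 5734, 6019 and 6663 CPM with both drugs, 5726, 5954 and 6313 CPM with isoproterenol, and 6980, 7125 and 7444 CPM in controls. Each treated library lay below each control. Tpm1 fell by 0.26 on the log2 scale with isoproterenol versus control (SE 0.046, edgeR adjusted p = 6.49e-04), 1.20-fold, and by 0.24 with both drugs versus control (SE 0.046, edgeR adjusted p = 0.00105). On the TPM scale its difference was -0.081 (limma adjusted p = 0.237) and -0.12 (limma adjusted p = 0.0927), which missed the threshold. Over all 23 alternatives the adjusted p lay between 1.30e-09 and 0.237 for isoproterenol versus control and between 5.74e-08 and 0.0927 for both drugs versus control. For both drugs versus isoproterenol the log2 fold change was 0.025 (SE 0.045, edgeR adjusted p = 0.913), and -0.042 on the TPM scale.

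Tpm2 (ENSMUSG00000028464, chromosome 4, 43514711 to 43523765, minus strand) encodes beta-tropomyosin, which smooth muscle and slow skeletal muscle use. It spread widely, with 17.1, 28.3 and 44.9 CPM with both drugs, 14.8, 21.3 and 30.1 CPM with isoproterenol, and 16.1, 20.7 and 35.0 CPM in controls. The ranges overlapped, and the log2 fold change was -0.048 for isoproterenol versus control (SE 0.24, edgeR adjusted p = 0.923; 0.13 on the TPM scale) and 0.31 for both drugs versus control (SE 0.24, edgeR adjusted p = 0.376). Tpm2 was highest in library 4 with both drugs, at 22.9 TPM, where the 12 smooth muscle and pericyte markers summed to 1259 TPM. That was the highest sum of all 18 libraries, and the part of smooth muscle in the Tpm2 level was not tested. Of the 12 markers, Myh11 held 20.7 TPM and Acta2 119 TPM in that library. Most of the sum came from other markers of the list, which include Des and Abcc9, so it is not a level of smooth muscle alone. Acta2 was highest in library 6 with both drugs, at 137 TPM. Over the groups the 12 markers summed to 918 to 1259 TPM with both drugs, 932 to 1218 TPM with isoproterenol and 850.0 to 1060.2 TPM in controls, and none was at 0.

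Cardiac myosin binding protein C showed the largest fall among the genes that edgeR called with isoproterenol. Lmod2, which edgeR did not call there, fell by 0.37 and was called by DESeq2 and limma-voom. Mybpc3 (ENSMUSG00000002100, chromosome 2, 91118144 to 91136516, plus strand) had 1583, 2054 and 2332 CPM with both drugs, 1904, 2096 and 2425 CPM with isoproterenol, and 2549, 2681 and 2905 CPM in controls. Both treated ranges lay wholly below the control range. Mybpc3 fell by 0.36 on the log2 scale with isoproterenol versus control (SE 0.079, edgeR adjusted p = 0.00504), 1.28-fold, and by 0.41 with both drugs versus control (SE 0.079, edgeR adjusted p = 9.86e-04), 1.33-fold. Without the 4 libraries high in Myl7 the first of these was -0.29 and no longer called (edgeR adjusted p = 0.0841), and the second was -0.38 and still called (edgeR adjusted p = 0.0179). On the TPM scale the second was also called, at -0.31 (limma adjusted p = 0.0148), and the first was not, at -0.18 (limma adjusted p = 0.127). The adjusted p over the 23 alternatives ranged from 4.03e-04 to 0.127 for isoproterenol and from 1.53e-05 to 0.0179 for both drugs.

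Leiomodin 2 nucleates actin and lengthens thin filaments at their pointed ends. Lmod2 (ENSMUSG00000029683, chromosome 6, 24597762 to 24605414, plus strand) had 303, 414 and 562 CPM with both drugs, 376, 475 and 518 CPM with isoproterenol, and 512, 572 and 718 CPM in controls. In each treated group 5 of 6 libraries were below the lowest control. Lmod2 fell by 0.51 on the log2 scale with both drugs versus control (SE 0.13, edgeR adjusted p = 0.00929), 1.43-fold, and the TPM scale gave -0.42 (limma adjusted p = 0.0412). For isoproterenol versus control the log2 fold change was -0.37 (SE 0.13, edgeR adjusted p = 0.0666), and for both drugs versus isoproterenol -0.15 (SE 0.13, edgeR adjusted p = 0.798). The isoproterenol value was called by DESeq2 (adjusted p = 0.0339), by limma-voom (0.0262) and by edgeR on only the 12 libraries compared (0.0159), and on the TPM scale it was -0.18 (limma adjusted p = 0.342). Its adjusted p ranged from 0.0159 to 0.384 over the 23 alternatives. The call with both drugs was lost without the 4 libraries high in Myl7, at -0.35 and an edgeR adjusted p = 0.132 (0.00109 to 0.132 over the alternatives).

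Tnni3k (ENSMUSG00000040086, chromosome 3, 154786291 to 155055407, minus strand) encodes a kinase of cardiomyocytes that binds cardiac troponin I. It had 61.5, 90.3 and 94.3 CPM with both drugs, 80.9, 88.1 and 98.7 CPM with isoproterenol, and 78.5, 96.7 and 99.1 CPM in controls, and the ranges overlapped. Its log2 fold change was -0.074 for isoproterenol versus control (SE 0.091, edgeR adjusted p = 0.642; 0.11 on the TPM scale) and -0.15 for both drugs versus control (SE 0.091, edgeR adjusted p = 0.262). Tnni3k was not called in any of the 3 comparisons.

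**Figure D3:**
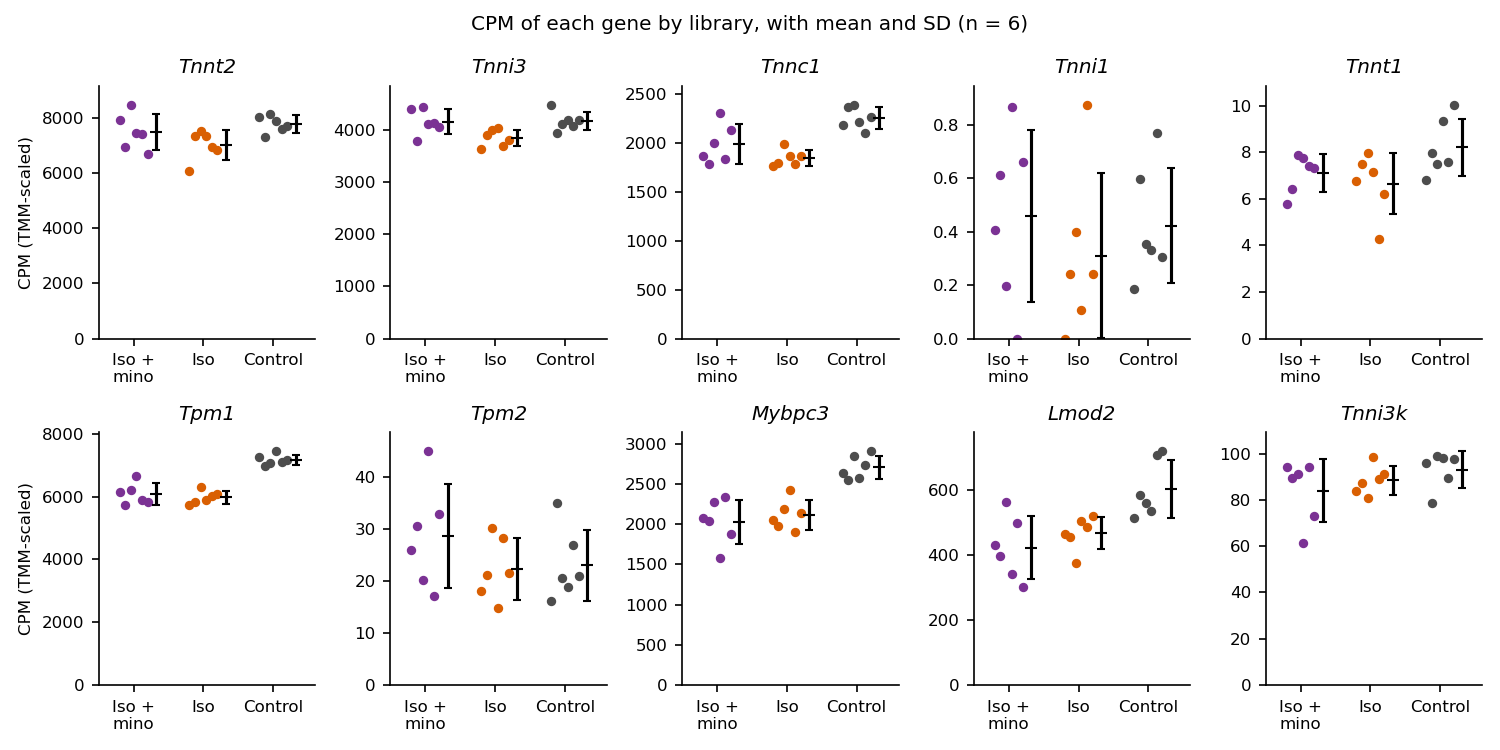
CPM (TMM-scaled) of each gene in the 6 libraries of each group, 1 point per library, with mean and SD beside them and each axis starting at 0. In Tpm1 and Mybpc3 every treated library is below every control, in Tnnc1 every isoproterenol library is. On the TPM scale the isoproterenol-versus-control difference of Tnnt2, Tnni3, Tpm2 and Tnni3k has the opposite sign.

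Ratios between genes of the same library, which no scaling changes, showed which of these genes shifted against each other. Among the 7 genes with at least 1000 counts on average, 21 pairs were compared in each of the 3 comparisons by a 2-sided exact permutation test of the log2 ratio, adjusted by Benjamini-Hochberg over the 63 tests. The smallest p these tests can give is 0.00216. Of the 21 ratios, 4 passed for isoproterenol versus control, 5 for both drugs versus control and 0 for both drugs versus isoproterenol, where 0 were under 0.05 before adjustment as well. The 21 pairs reuse the same 7 genes and are not separate results. Ratios between other abundant genes were not tested, so no share over all genes stands beside these counts.

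Troponin I gained on tropomyosin and on myosin binding protein C. The TPM ratio Tnni3/Tpm1 had a lowest, median and highest value of 1.94, 2.20 and 2.26 with both drugs, 1.93, 2.00 and 2.15 with isoproterenol, and 1.78, 1.82 and 1.94 in controls. It was higher by 0.23 on the log2 scale with both drugs versus control and by 0.15 with isoproterenol versus control (exact permutation adjusted p = 0.0390 for each), and the treated and control ranges overlapped only at their ends. The ratio Tnni3/Mybpc3 was 3.58, 4.12 and 5.25 with both drugs, 3.36, 3.64 and 3.997 with isoproterenol, and 2.92, 3.07 and 3.44 in controls. Its log2 difference from control was 0.42 with both drugs, without overlap, and 0.24 with isoproterenol (exact permutation adjusted p = 0.0390 for each).

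Within the troponin complex, Tnni3/Tnnc1 was 1.02, 1.04 and 1.10 with isoproterenol and 0.842, 0.946 and 1.04 in controls, a log2 difference of 0.17 (exact permutation adjusted p = 0.0455). With both drugs versus control the difference was 0.18 at an unadjusted exact permutation p = 0.0476, which missed the threshold after adjustment. Tnnt2/Tnnc1 did not pass in either comparison with control. Its log2 differences were 0.14 with isoproterenol and 0.13 with both drugs (exact permutation adjusted p = 0.0909 and 0.303). The ratio Tnnt2/Tnni3 was not called, with log2 differences of -0.035 for isoproterenol and -0.052 for both drugs versus control (exact permutation p = 0.377 and 0.173 before adjustment). Tnnt2 gained on Mybpc3 by 0.37 (adjusted p = 0.0390) and on Tpm1 by 0.18 (adjusted p = 0.0455) with both drugs versus control in the exact permutation test, and the second was lost without the 4 libraries high in Myl7 (p = 0.0556 before adjustment). Mybpc3 also fell against the kinase gene Tnni3k, with Mybpc3/Tnni3k at 17.4, 19.6 and 20.4 with both drugs, 16.9, 19.0 and 21.4 with isoproterenol, and 20.7, 23.1 and 25.7 in controls. The log2 differences were -0.26 and -0.29 (exact permutation adjusted p = 0.0390 for each).

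**Figure D4:**
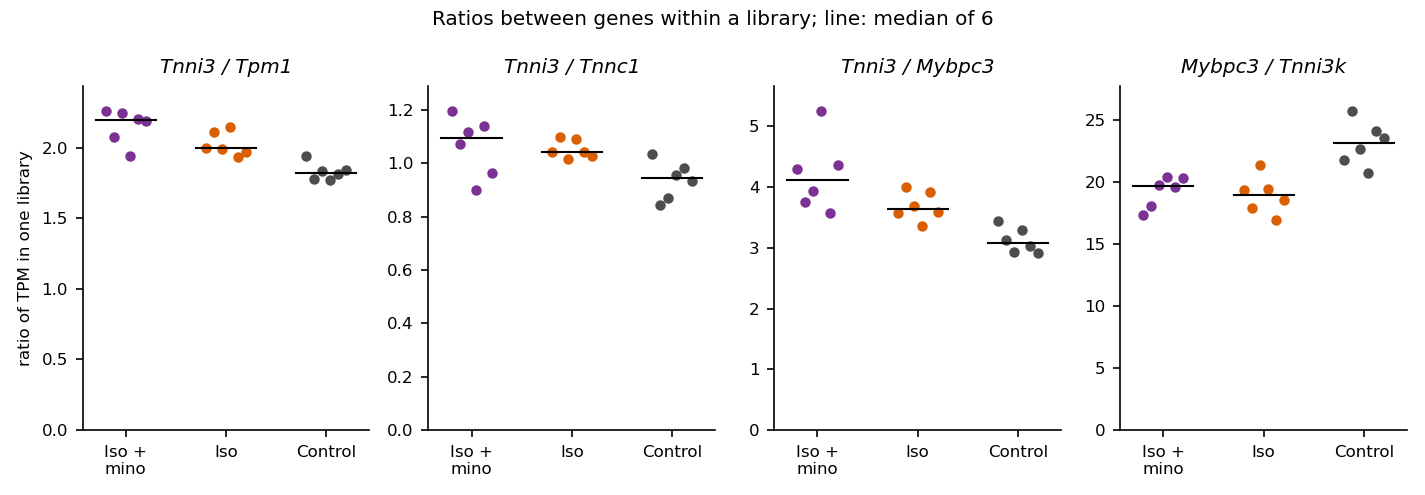
Ratio of TPM between 2 genes of 1 library, 1 point per library and a line at the median of 6, for each group. The medians of Tnni3/Tpm1 are 2.20 with both drugs, 2.00 with isoproterenol and 1.82 in controls, and Mybpc3/Tnni3k is lower in both treated groups than in controls.

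Libraries of one group also varied together. After subtracting group means from log2-CPM, 7 of the 45 pairs of these genes were correlated over the 18 libraries at an adjusted p under 0.05 in a permutation test. The permutations did not allow for the group means taken out, which makes these p-values somewhat too small. A value near the threshold, such as that of Mybpc3 and Lmod2, is therefore not firm. The share of pairs that would pass among all tested genes was not determined, so the 7 are not read as a trait of these genes. Tnnt2 and Tnni3, 2 subunits of one complex on different chromosomes, varied together (Pearson r = 0.80, Spearman rho = 0.82, permutation adjusted p = 0.00150, r = 0.76 without the 2 libraries farthest from the median). So did Tnni1 and Tpm2 (r = 0.85, rho = 0.91, permutation adjusted p = 4.50e-04, r = 0.88 without 2 libraries), Mybpc3 and Tnni3k (r = 0.79, rho = 0.73, permutation adjusted p = 0.00214, r = 0.58) and Mybpc3 and Lmod2 (r = 0.61, rho = 0.56, permutation adjusted p = 0.0432, r = 0.52). Tnni1 had only 0 to 16 counts per library, so its correlation rests on values near the floor. Tpm2 went against Tnni3k (r = -0.79, rho = -0.73, permutation adjusted p = 0.00150, r = -0.65) and against Mybpc3 (r = -0.70, rho = -0.62, permutation adjusted p = 0.0103, r = -0.57), and Tnnc1 against Tnni3k (r = -0.68, rho = -0.50, permutation adjusted p = 0.0131, r = -0.47). The rank correlations of Mybpc3 with Lmod2 and Tpm2 and of Tnnc1 with Tnni3k missed the threshold (permutation adjusted p = 0.0899, 0.0652 and 0.132).

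**Figure D5:**
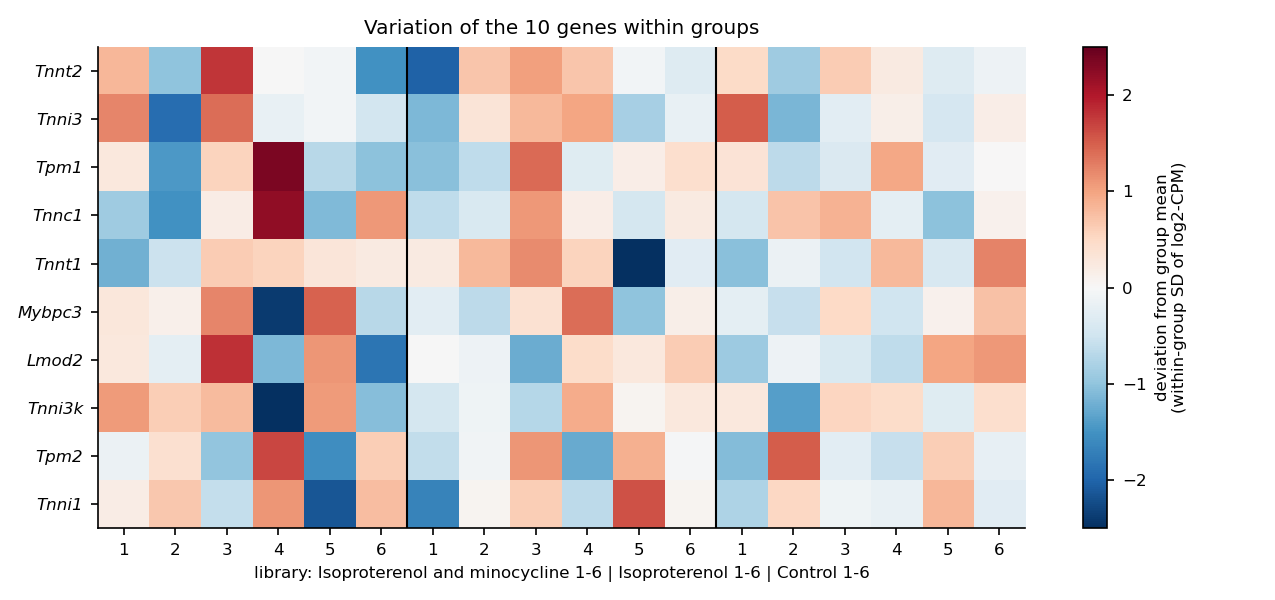
Deviation of each gene from its group mean in each library, in units of the within-group SD of log2-CPM, red above and blue below the mean. Library 4 with both drugs is lowest of its group in Tnni3k and highest in Tpm2, and the rows of Tnnt2 and Tnni3 follow each other (r = 0.80).

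Among all tested genes outside the 10, those that followed each gene most closely over the 18 libraries fell into different kinds. The nearest to Mybpc3 was Casq2, cardiac calsequestrin of the sarcoplasmic reticulum (r = 0.91), and Myl3, the ventricular essential light chain, was among the 3 nearest to Tnnc1 (r = 0.83). Tpm2 was followed by Bgn, the matrix proteoglycan biglycan (r = 0.95), and by Olfml3 and Lbp (r = 0.93 each). The nearest to Tnni1 was Csf1r, the receptor of macrophages for colony stimulating factor (r = 0.90), then Lbp (r = 0.89). Both values rest on the 0 to 16 counts per library of Tnni1. Tnnt2 and Tnni3 had Bckdhb, a subunit of the mitochondrial branched-chain keto acid dehydrogenase, in common (r = 0.77 and 0.85). For Tnni3k the nearest was Antxr2 (r = 0.96), for Lmod2 Npepps (r = 0.90), for Tpm1 Ccs (r = 0.81) and for Tnnt1 Fut8 (r = 0.82). These genes were picked for the highest r among all tested genes outside the 10, and such picking gives high r among unrelated genes too. The r values describe these 18 libraries and were not tested.

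The other genes of the thin filament and its ends were set beside the 10. Acta2 and Lmod1 of that list also stand in the smooth muscle list, Actc1 in the cardiomyocyte list. Of 23 such genes 21 were tested, and with isoproterenol versus control 2 rose and 4 fell, with a median log2 fold change of -0.064, against -0.28 for the 10 genes and 0.0011 for all genes tested. EdgeR called 6.94% of all genes tested higher and 5.62% lower. Of the 21, the TPM scale gave 6 that rose and 2 that fell, and a median of 0.11, against -0.059 for the 10 genes and 0.13 for all genes tested. On that scale 3101 of all 13281 tested genes rose and 174 fell. The tropomyosins went different ways. Tpm4, a cytoskeletal tropomyosin, rose to 128 ± 11.2 CPM with isoproterenol, against 95.5 ± 13.0 CPM in controls (log2 fold change 0.43, edgeR adjusted p = 0.00946), and Tpm3 rose to 58.7 ± 2.33 CPM, against 46.8 ± 3.24 CPM (0.33, edgeR adjusted p = 0.0293), with no overlap in either (SD, n = 6 each). Tpm3 was among the 6 called but not among the 4 of smallest p, and is named because it is the other tropomyosin. The largest fall of the list was in Acta1, a sarcomeric actin gene (log2 fold change -2.28). It had 117 ± 39.1 CPM with isoproterenol, against 570 ± 348 CPM in controls, which ran from 245 to 1228 CPM. Every isoproterenol library was below every control. With both drugs Acta1 had 173 ± 113 CPM (-1.72 versus control), with 5 of 6 libraries below the lowest control.

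Tmod4, a tropomodulin that caps pointed ends, fell to 11.9 ± 1.93 CPM with isoproterenol, against 17.4 ± 1.70 CPM in controls (log2 fold change -0.55, edgeR adjusted p = 7.27e-04), and Cfl2, the muscle cofilin that severs actin, fell by 0.24 (edgeR adjusted p = 0.00394). With both drugs versus control 6 rose and 5 fell, with a median of -0.11, and on the TPM scale 6 rose and 2 fell, with a median of 0.0042. Over all 13281 tested genes the TPM scale gave 1993 that rose and 379 that fell, with a median of 0.081. EdgeR called 10.2% of them higher and 9.05% lower. Tpm4 rose (0.48, edgeR adjusted p = 0.00297), Acta2, the smooth muscle actin, rose to 121 ± 25.5 CPM with both drugs, against 68.4 ± 14.6 CPM in controls (0.82, edgeR adjusted p = 0.00244), and Tmod4 and Xirp2, an actin-binding protein of intercalated discs, fell (-0.66 and -0.39, edgeR adjusted p = 7.65e-05 and 0.00462). For both drugs versus isoproterenol edgeR called 0 of the 21, with 3 at an unadjusted p under 0.05, and DESeq2 and limma-voom also called 0. The falls of Cfl2 (-0.059) and Xirp2 (-0.26) missed the threshold on the TPM scale (limma adjusted p = 0.520 and 0.0952), while Tpm3, Tpm4, Tmod4 and Acta2 passed it there with the same sign.

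Every called thick filament gene fell. Of 17 tested, 8 fell and 0 rose with isoproterenol versus control (median -0.40), and 10 fell and 0 rose with both drugs versus control (median -0.31). Over all genes tested edgeR called 5.62% lower and 6.94% higher in the first comparison, and 9.05% and 10.2% in the second. With TPM, 5 fell and 0 rose in each of these comparisons, with medians of -0.21 and -0.18. On that scale 174 and 379 of all 13281 tested genes fell and 3101 and 1993 rose, with medians of 0.13 and 0.081. Between the treated groups edgeR called 0 of the 17, with 4 at an unadjusted p under 0.05, and DESeq2 and limma-voom called 0. Of this list Myh6, Myl2, Myl3 and Ttn also stand in the cardiomyocyte list, and Myl4, Myl7 and Mybphl in the atrial one. Myh7b, a slow myosin heavy chain, fell to 81.6 ± 11.2 CPM with isoproterenol, against 150.0 ± 11.7 CPM in controls (log2 fold change -0.88, edgeR adjusted p = 1.02e-06). Myom1, the M-band protein myomesin 1, fell by 0.46 with both drugs versus control (edgeR adjusted p = 6.41e-05).

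Kinases, phosphatases and transcription factors of the cardiomyocyte were mostly not called. Of 23 tested, 2 rose and 2 fell with isoproterenol versus control (median -0.025), 1 rose and 2 fell with both drugs versus control (median -0.088), and 0 were called between the treated groups by edgeR, DESeq2 or limma-voom, with 0 at an unadjusted p under 0.05. EdgeR called 6.94% of all genes tested higher and 5.62% lower in the first of these comparisons, and 10.2% and 9.05% in the second. On the TPM scale the medians of the 23 were 0.14 with isoproterenol and 0.026 with both drugs versus control. Over all genes tested they were 0.13 and 0.081. Of the 23, 5 and 2 rose and 0 fell there, where 3101 and 1993 of all 13281 tested genes rose and 174 and 379 fell. Camk2d, the main cardiac isoform of the calcium/calmodulin kinase, fell to 64.9 ± 6.22 CPM with isoproterenol, against 85.3 ± 7.60 CPM in controls (-0.39, edgeR adjusted p = 0.00231), and Prkd1, protein kinase D1, fell by 0.41 (edgeR adjusted p = 0.0278). The cardiac transcription factors Tbx5 and Nkx2-5 rose (0.36 and 0.30, edgeR adjusted p = 0.0223 and 0.0326), and of these 4 genes both rises but neither fall passed on the TPM scale. Prkaca, the catalytic subunit of protein kinase A that phosphorylates troponin I and myosin binding protein C, fell by 0.27 with both drugs versus control (edgeR adjusted p = 0.0131) and was not called with isoproterenol alone (-0.19, edgeR adjusted p = 0.0937), and the treated groups did not differ past the threshold (-0.082, edgeR adjusted p = 0.798). The first value was -0.16 on the TPM scale and not called (limma adjusted p = 0.237).

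Markers of some other cells moved in the same comparisons. With isoproterenol versus control 5 of 9 fibroblast markers and 7 of 9 macrophage markers rose and 0 fell, while 4 of 11 cardiomyocyte markers fell and 0 rose (median log2 fold change -0.19). When both drugs were given, 8 of 9 fibroblast and 7 of 9 macrophage markers rose versus control, and 5 of 11 cardiomyocyte markers fell. Fewer were called in the other lists. With isoproterenol versus control 3 of 12 smooth muscle and pericyte, 0 of 7 endothelial and 0 of 5 blood markers rose. With both drugs versus control these were 5, 1 and 0, and 0 fell in either comparison. Over all genes tested edgeR called 6.94% higher and 5.62% lower with isoproterenol versus control, and 10.2% and 9.05% with both drugs versus control. By limma on log2(TPM + 1), 8 of 9 fibroblast and 9 of 9 macrophage markers rose with isoproterenol versus control, and 2 of 11 cardiomyocyte markers fell, with a median of -0.011. The same test gave 9 of 9 fibroblast and 8 of 9 macrophage markers higher and 2 of 11 cardiomyocyte markers lower for both drugs versus control, where the cardiomyocyte list had a median of -0.11. By that test 5 of 12 smooth muscle and pericyte, 3 of 7 endothelial and 0 of 5 blood markers rose with isoproterenol versus control. For both drugs versus control these were 6, 2 and 0. That test called 3101 of all 13281 tested genes higher and 174 lower with isoproterenol versus control, with a median of 0.13. With both drugs versus control it called 1993 higher and 379 lower, with a median of 0.081. Fibroblast markers summed to 946 to 1823 TPM with both drugs, 1068 to 1713 TPM with isoproterenol and 728 to 1056 TPM in controls, and none was at 0. Macrophage markers summed to 138 to 212, 146 to 236 and 94.3 to 126 TPM in the same order. Fast skeletal muscle markers summed to no more than 25.2 TPM in any library, with Myh4 at 0 in each. The part of these cells in the values of the 10 genes was not tested.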

How the data were processed

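The 18 libraries, 6 per group, were made of polyadenylated left-ventricular RNA. Per the labels' protocols, paired reads were trimmed and analysed in CLC Genomics Workbench 21.0.3, and edgeR is named, with no role, per the submitters' processing notes. Genome build, annotation, mapping and strand: not given in the sources used here. In 1 deposited table stand the authors' total counts per gene and library, and the authors' TPM values, which are scaled per library by gene length and total but not between libraries. Columns were matched to libraries by the number in the description, and the number of per-sample columns left unmatched was 0. The protocols speak of pooled RNA while each library has its own number, so p-values measure the spread between libraries, which may be technical. Counts of libraries of one group differed beyond sampling noise in each of 45 pairs (chi-square per degree of freedom 5.57 to 35.4).

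Counts were tested in 1 fit of all 18 libraries with edgeR 4.0.16 in R 4.3.3 (filterByExpr, TMM, robust quasi-likelihood, 2-sided, Benjamini-Hochberg over 13281 genes, threshold 0.05). The biological coefficient of variation was 13.2%. The steps were tested on simulated data. Standard errors of log2 fold changes were taken from the quasi-likelihood F. DESeq2 1.42.0 and limma 3.58.1 served as alternatives, limma on log2(TPM + 1) with a pseudocount of 1 TPM. Motifs and promoters came from RefSeq on GRCm38.p6, and gene coordinates are those of the deposited table, identical to GENCODE M21 for the 10 genes. Within a list, up to 4 called genes with the smallest p were named, and for each of the 10 genes some of the 3 genes most correlated with it. The 10 genes and the lists were chosen with earlier results of these data known. The TPM test, the ratios between genes and the correlations among the 10 genes were chosen after seeing the data.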

Additional observations from a re-analysis of the deposited data

Results flagged for a closer look

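None of the values of these genes met a rule for a closer look: in 39 groups of 6 libraries, no highest or lowest library was set apart from the others by Dixon's test, where chance alone gives about 1 in 20.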

How the results depend on the processing

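The number of the 10 genes called for isoproterenol versus control was 3 by edgeR, 5 by DESeq2, which added Tnni3 (adjusted p = 0.0455) and Lmod2 (0.0339), 4 by limma-voom, and 0 by limma on log2(TPM + 1). For both drugs versus control it was 4 by edgeR, DESeq2 and limma-voom, and 2 when the 4 libraries high in Myl7 were left out and 2 on TPM. For both drugs versus isoproterenol it was 0 in edgeR, in DESeq2 and in limma-voom, and under each of the 23 alternatives. Leaving out 1 library at a time gave 3 to 3 genes, 3 to 4 genes and 0 to 0 genes in these 3 comparisons. Tnnc1 with both drugs versus control lost its call under 13 of 23 alternatives (adjusted p = 0.00593 to 0.418).

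Uncalled values changed sign under some alternatives. On the TPM scale these were, for isoproterenol versus control, Tnnt2 0.030, Tnni3 0.065, Tpm2 0.13 and Tnni3k 0.11, for both drugs versus control Tnnt2 0.058 and Tnni3 0.11, and for both drugs versus isoproterenol Tpm1 -0.042. Tnni3 with both drugs versus control was 0.0022 with upper-quartile scaling, 0.0030 with limma-voom, 0.0015 with a filter of 1 CPM in 6 libraries and 0.024 without the libraries high in Myl7. Tpm2 with isoproterenol versus control was 0.046 with atrial markers as a covariate, and Tnni1 with both drugs versus control was -0.52 with limma-voom and -0.091 with that covariate. The Tnnt1 share of troponin T without the libraries high in Myl7 differed by 3.91e-04 percentage points for isoproterenol versus control and by -0.00570 for both drugs versus isoproterenol. Leaving out 1 library at a time gave -0.16 to 0.11 for Tpm2 with isoproterenol versus control, -0.026 to 0.027 for Tnni3 and -0.15 to 0.36 for Tnni1 with both drugs versus control, and -0.0030 to 0.047 for Tpm1, -0.10 to 0.0027 for Mybpc3 and -0.0052 to 0.15 for Tnnt1 with both drugs versus isoproterenol. The same gave -0.0062 to 0.0050 percentage points for the Tnnt1 share with both drugs versus isoproterenol and -0.0011 to 0.0032 for the Tnni1 share with both drugs versus control. The cause of these changes was not tested. Depth limits Tnni1, with 139 counts in all. No paired analysis was possible because the labels give no library number to more than 1 group.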
